A study of Mus musculus with 12 samples.

Results

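Conjugation by UDP-glucuronosyltransferases (UGT), sulfotransferases (SULT) and glutathione S-transferases (GST) was followed in mouse liver 3 days after a partial hepatectomy, an operation that takes away part of the organ. Members were all genes of the deposited table whose symbols start with Ugt or Sult and a digit, or with Gst, a class letter and a digit. This rule found 49 of 13554 genes, of which 17 were UGT, 11 SULT and 21 GST genes. All mice were wild-type males of strain C57Bl/6J, and the 12 liver libraries formed 4 groups of 3. PH80_HC had 80% of the liver removed in an arm that the labels name HC, PH80_G+H had the same resection with G-CSF and HNF4a, PH80 had the 80% resection alone, and PH70 had 70% removed. What HC stands for, how G-CSF and HNF4a were dosed and timed, and how old the mice were is not stated in the labels, and no unresected liver was analysed here. Nothing in the labels ties each library to its own animal, and p-values therefore describe the spread among these 12 libraries, part of which may be technical.

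Phase II enzymes attach a polar group to lipophilic molecules so that these can leave the liver in bile or blood. UGT enzymes of the endoplasmic reticulum transfer glucuronic acid from UDP-glucuronic acid to bilirubin, steroids and drugs. SULT enzymes of the cytosol transfer sulfate from the donor PAPS to phenols, steroids and bile acids, and GST enzymes couple the tripeptide glutathione to reactive electrophiles. Hepatocytes hold most of this capacity in the liver.

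Values are normalised reads, that is, reads divided by 1 size factor per library, and each error is an SD of 3 libraries except where SE is written. Differences are on the scale log2(normalised reads + 1), which understates the change of genes with few reads. A gene is called when the limma adjusted p (Benjamini-Hochberg, over all 12570 genes tested) is under 0.05. Of the members, 43 had at least 10 normalised reads in at least 3 libraries and were tested (15 UGT, 8 SULT and 20 GST genes). The other 6, Ugt1a10, Ugt1a7c, Sult4a1, Sult2a2, Sult2b1 and Gsto2, were not tested, and their highest values in any library lay between 5.19 (Sult4a1) and 13.4 normalised reads (Ugt1a7c).

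Libraries held between 9720887 and 44526542 reads, and depth limits the precision of members with few reads. All 8 hepatocyte markers were in the table, and their summed level was 2.93 to 4.21 M normalised reads in PH80_HC, 2.67 to 3.21 M in PH80_G+H, 2.04 to 2.50 M in PH80 and 3.16 to 3.37 M in PH70, so that PH80 lay below each of the other groups without overlap. The 8 neutrophil markers summed to 595 to 2191 normalised reads in PH80_HC, 366 to 2366 in PH80_G+H, 306 to 5874 in PH80 and 143 to 497 in PH70. No marker in the table was at 0 in every library. Alb alone held 7.05% to 8.70% of all values in PH80 and 9.94% to 11.7% in PH70. It held 6.74% to 10.9% in PH80_HC and 8.96% to 11.7% in PH80_G+H. The hepatocyte sum therefore rests largely on Alb, and the other hepatocyte markers are not given singly. In bulk RNA, fewer hepatocytes, less RNA per hepatocyte and lower expression of the marker genes themselves cannot be told apart. Libraries also differed in how their values moved with transcript length, the log2 slope per doubling running from -0.28 (PH80_HC replicate 3) to 0.24 (PH80_G+H replicate 2). The median transcript length was 2224 bases for the tested UGT genes, 1994.5 for SULT and 1142 for GST, against 3098 for all tested genes. The part of these features in the results below was not tested unless a value without them is given.

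Per transcript length, GST transcripts were the most abundant of the 3 families. Summed over the family, GST genes reached 169571 ± 39231 normalised reads per kb in PH80_HC, 168617 ± 27574 in PH80_G+H, 175154 ± 51244 in PH80 and 159329 ± 15008 in PH70. Gstm1 (mu class) averaged 51438 normalised reads per kb over the 12 libraries, Gstp1 (pi class) 32011 and Gsta3 (alpha class) 24126. Sult1a1, the main phenol sulfotransferase, led its family with 10234 normalised reads per kb, followed by the bile acid sulfotransferase Sult2a8 with 1875 and Sult1d1, which sulfates catecholamines, with 882. The order of the last pair differed by group, as Sult2a8 had 376 ± 408 and Sult1d1 772 ± 287 normalised reads per kb in PH80, against 3832 ± 2572 and 868 ± 156 in PH70. Among UGT genes Ugt2b36 (8037 normalised reads per kb), Ugt2b5 (6501) and Ugt2b1 (1923) were highest, all of the subfamily that glucuronidates steroids and bile acids. Ugt1a1, the bilirubin-conjugating enzyme of the Ugt1 locus, averaged 521 normalised reads per kb.

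**Figure D1:**
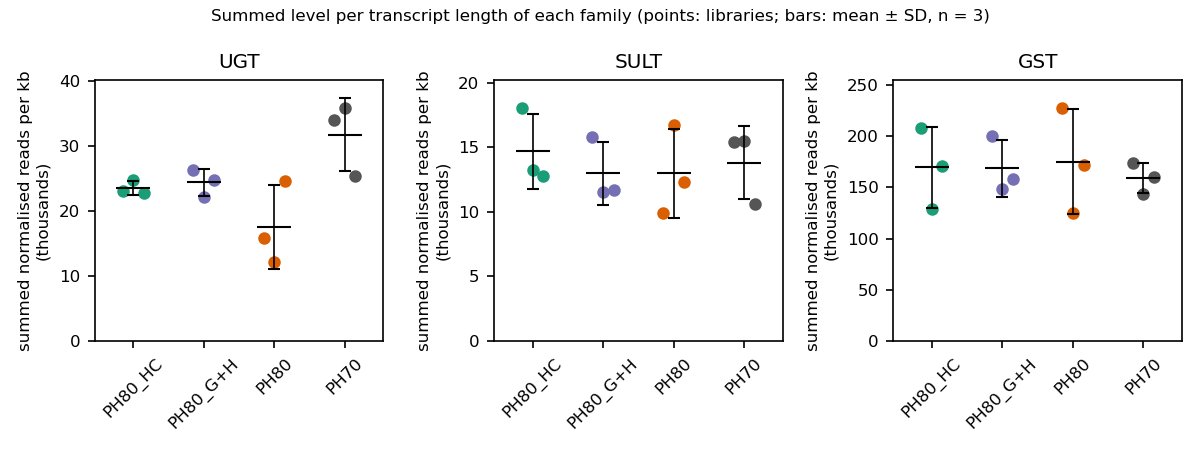
Summed normalised reads per kb of transcript (linear axis from 0, in units of 1000) of the UGT, SULT and GST genes in every library, with mean ± SD over 3 libraries. The UGT sum ran from 12151 to 24697 in PH80 against 25423 to 35896 normalised reads per kb in PH70, whereas the SULT and GST sums of these groups overlapped.

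The UGT sum separated the resections. It was 17550 ± 6453 normalised reads per kb in PH80, against 31795 ± 5594 in PH70, and the libraries of these groups did not overlap. PH80_HC had 23569 ± 1075 and PH80_G+H 24472 ± 2084 normalised reads per kb, and the PH80_HC libraries (22837 to 24803) lay below every PH70 library, whereas the PH80_G+H libraries (22242 to 26370) overlapped PH70. SULT sums were 14695 ± 2914 in PH80_HC, 12997 ± 2435 in PH80_G+H, 12974 ± 3458 in PH80 and 13820 ± 2805 normalised reads per kb in PH70, with all groups overlapping. These sums are descriptions and were not tested.

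The comparison of PH80 with PH70 asks how the larger resection differed from the smaller. In PH80, 6 of 43 members fell and 1 rose, or 16.3% of members, where 3.82% of all tested genes were called. Most of those that fell were UGT genes, namely Ugt3a1, Ugt3a2, Ugt2a3 and Ugt2b1, beside Sult1c2 and Sult2a8, and the gene that rose was Sult1e1, the oestrogen sulfotransferase. No GST gene was called. The calls rest on few libraries, and the share of all tested genes called moved with them. The count of members was 0 without PH70 replicate 1 (1.38% of all tested genes called), PH70 replicate 2 (0.485%) or PH80 replicate 2 (1.25%), and 1 (Sult1c2) without PH80 replicate 1 (0.994%). It was 11 without PH80 replicate 3 (3.94%) and 12 without PH80_HC replicate 3 (5.77%). The count was also 2 with every library scaled to the same total (1.89%), 3 without the intensity trend of the limma fit (2.7% of all tested genes called) and 3 by edgeR (2.84%), against 11 with the trend on length removed (4.91%) and 12 by DESeq2 (7.57%).

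**Figure D2:**
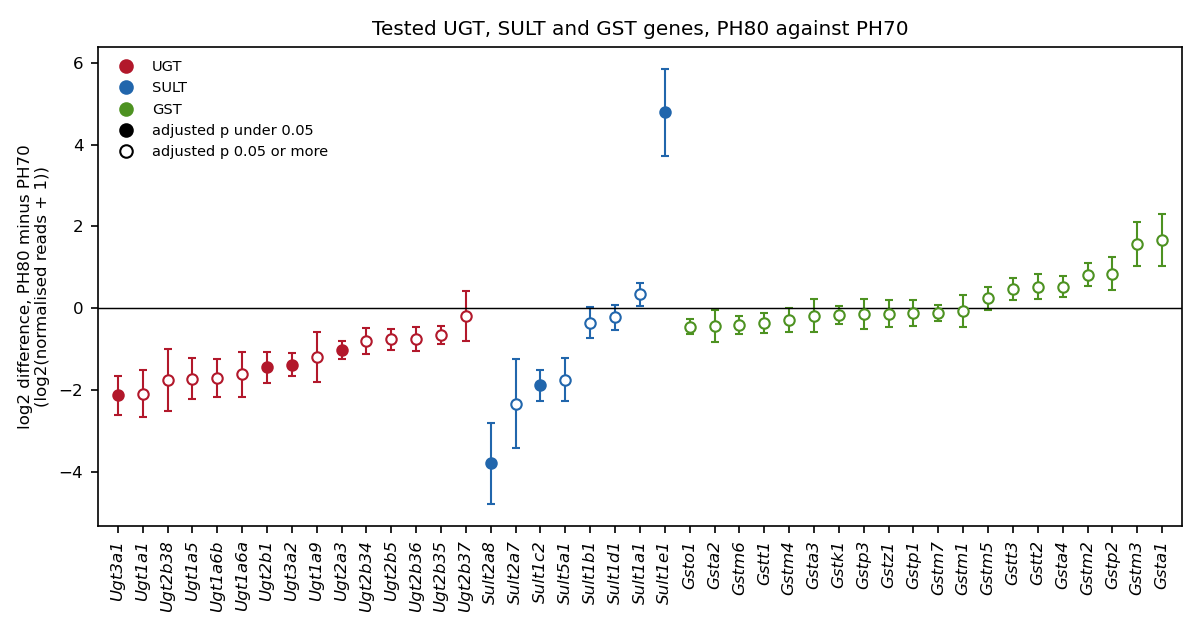
Log2 difference of PH80 minus PH70 (y axis, log2(normalised reads + 1), bars SE) for the 43 tested members, ordered within each family, with filled symbols for an adjusted p under 0.05. All 15 UGT genes lie below 0, the SULT genes run from -3.80 to 4.79, and the GST genes run from -0.45 to 1.67 with none called.

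UGT genes lay lower in PH80 than in PH70. All 15 tested had a lower mean log2 value in PH80 (14 or 15 in each of 23 alternative settings), although the mean of the untransformed values of Ugt2b37 was higher in PH80. Of these genes 4 were called, and 13 had an unadjusted p under 0.05, a level that 21.4% of all tested genes reached. In 8 of the 15 every PH80 library was below every PH70 library, as for 14.2% of all tested genes in that direction. Their median log2 difference was -1.38, against 0.01 over all tested genes, with a range of -1.71 to -1.01 over the alternatives. Within PH80 the libraries were uneven, as replicate 3 had the highest value of its group for all 15 genes, and the family's geometric mean, relative to PH70, was 0.323 and 0.302 in the first and second replicates against 0.709 in the third. The summed hepatocyte markers were also lower in PH80 than in PH70, and their part in the UGT result was not tested.

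Ugt3a1 and Ugt3a2 are neighbours on chromosome 15 (9276888 to 9315032 and 9335550 to 9370955, GRCm38), and their human counterparts use sugars other than glucuronic acid. Ugt3a1 had 71.7, 108 and 267 normalised reads in PH80, against 593, 702 and 428 in PH70. Ugt3a2 had 1502, 2167 and 3236 normalised reads in PH80, against 6185, 7230 and 4183 in PH70. For both, every PH80 library lay below every PH70 library. Ugt3a1 was 4.39-fold lower (log2 difference -2.13, SE 0.49, limma adjusted p = 0.0290), and over the alternatives its adjusted p ran from 0.00171 to 0.139. Ugt3a2 was 2.61-fold lower (log2 difference -1.38, SE 0.29, limma adjusted p = 0.0204, range over the alternatives 0.000401 to 0.116). The call was lost in 7 of 23 alternatives for Ugt3a1 and in 5 for Ugt3a2. In PH80_HC, Ugt3a1 had 163, 295 and 68.8 normalised reads and Ugt3a2 3975, 4794 and 2862. In PH80_G+H, Ugt3a1 had 261, 340 and 320 normalised reads and Ugt3a2 4549, 4211 and 3880. The PH80_G+H libraries of Ugt3a2 all lay above the PH80 libraries, while those of PH80_HC overlapped them.

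Of the 8 Ugt2 genes, which stand in a row on chromosome 5, Ugt2a3 and Ugt2b1 fell. Ugt2a3 had 2062, 1588 and 2990 normalised reads in PH80, against 4603, 4680 and 3782 in PH70. It was 2.03-fold lower without overlap (log2 difference -1.02, SE 0.23, limma adjusted p = 0.0265, range over the alternatives 0.00205 to 0.129). Ugt2b1 had 2399, 1456 and 5553 normalised reads in PH80, against 7264, 10165 and 5370 in PH70, so PH80 replicate 3 reached into the PH70 range. It was 2.73-fold lower (log2 difference -1.45, SE 0.38, limma adjusted p = 0.0496), a call that was lost in 17 of 23 alternatives, where the adjusted p ran from 0.00676 to 0.215. In PH80_HC, Ugt2a3 had 3502, 3679 and 2645 normalised reads and Ugt2b1 4510, 4247 and 3237. In PH80_G+H, Ugt2a3 had 2794, 2966 and 3291 normalised reads and Ugt2b1 4794, 5392 and 4996. Both arms were thus between the means of PH80 and PH70 for both genes.

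The most abundant UGT genes were lower by less and were not called. Ugt2b36 had 11341, 6918 and 15677 normalised reads in PH80, against 22079, 19011 and 13899 in PH70, with overlap (log2 difference -0.75, SE 0.30, limma adjusted p = 0.175). Ugt2b5 had 9070, 6449 and 11994 normalised reads in PH80, against 16081, 16865 and 12659 in PH70, without overlap (log2 difference -0.76, SE 0.26, limma adjusted p = 0.118). Ugt2b5 passed the threshold in 1 of 23 alternatives, with the trend on length removed (adjusted p = 0.0390, range 0.0390 to 0.333). It shares 41.7% of its 50-base words with other genes, chiefly Ugt2b38 and Ugt2b37, so reads of these genes may have been split between them. In PH80_HC, Ugt2b36 had 15140, 16894 and 16381 normalised reads and Ugt2b5 10295, 10288 and 14504. In PH80_G+H, Ugt2b36 had 16822, 11113 and 16817 normalised reads and Ugt2b5 14390, 10551 and 11807. Both arms overlapped PH80 for both genes. The other Ugt2 genes, Ugt2b34, Ugt2b35, Ugt2b37 and Ugt2b38, had log2 differences of -0.80, -0.65, -0.20 and -1.77 and overlapping groups.

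Genes of the Ugt1 locus on chromosome 1 had log2 differences from -2.10 to -1.19 and were not called. The locus joins separate first exons, each with its own start, to shared last exons. Ugt1a1 had 162, 624 and 731 normalised reads in PH80, against 1760, 2610 and 1269 in PH70 (log2 difference -2.10, SE 0.57, limma adjusted p = 0.0601). Ugt1a6b had 92.8, 199 and 249 normalised reads in PH80, against 487, 594 and 569 in PH70 (log2 difference -1.71, SE 0.46, limma adjusted p = 0.0557). These genes did not overlap between the groups, and neither did Ugt1a5 and Ugt1a6a, which conjugates phenols (log2 differences -1.72 and -1.62). Ugt1a9 overlapped (log2 difference -1.19). Ugt1a1, Ugt1a5, Ugt1a6a and Ugt1a6b each passed the threshold by DESeq2 and in the fit without PH80_HC replicate 3, where Ugt1a1 had an adjusted p of 0.0161. PH80_HC replicate 3 had the lowest value of its group for all 5 tested genes of the locus and the steepest trend on transcript length. The 7 Ugt1a genes of the table share between 50.3% and 60.6% of their exon bases with other genes of the locus. These include Ugt1a2 and Ugt1a8, which are not in the table, and the antisense gene Gm20528 overlaps the 7 genes. Of their 50-base words, Ugt1a6a shares 100% and Ugt1a6b 80.7% with other genes. The sources used here do not give how reads in shared exons were counted, so the Ugt1a genes are not independent measurements.

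**Figure D3:**
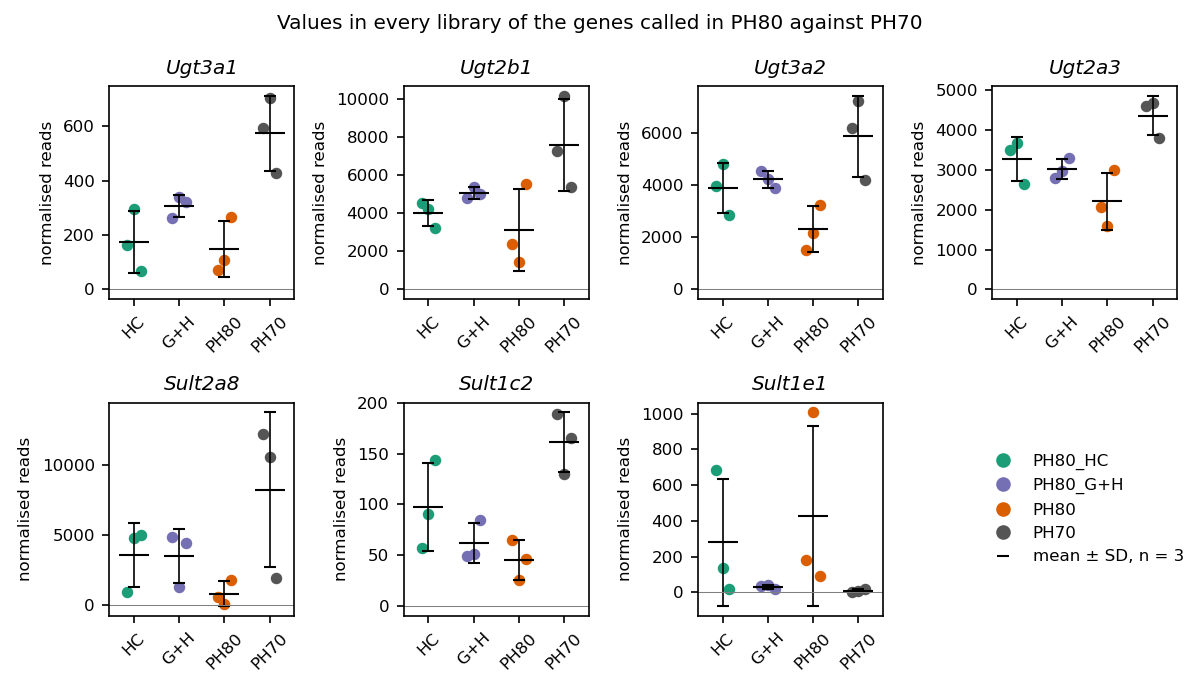
Normalised reads (linear axes) in every library of the 7 members called in PH80 against PH70, with mean ± SD over 3 libraries. PH80 lies below PH70 without overlap for Ugt3a1, Ugt3a2, Ugt2a3, Sult1c2 and Sult2a8, overlaps it for Ugt2b1, and lies above it for Sult1e1.

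SULT genes went both ways. Of 8 tested, 2 fell, 1 rose and 5 were not called, with a median log2 difference of -1.05. Sult1c2, of the family that sulfates phenols (chromosome 17, 53829637 to 53846339), had 64.7, 25.4 and 45.8 normalised reads in PH80, against 189, 130 and 165 in PH70. It was 3.70-fold lower without overlap (log2 difference -1.89, SE 0.38, limma adjusted p = 0.0180, range over the alternatives 0.000304 to 0.0684). Sult1c2 had 57.5, 91.1 and 144 normalised reads in PH80_HC and 49.7, 51.0 and 84.3 in PH80_G+H. Its lowest values therefore came from PH80 and PH80_G+H.

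Sult2a8, a bile acid sulfotransferase (chromosome 7, 14410686 to 14446769), spread widely within every group. It had 544, 93.5 and 1782 normalised reads in PH80, against 12160, 10562 and 1915 in PH70. The groups did not overlap, but PH70 replicate 3 lay close to PH80 replicate 3. Sult2a8 was 13.9-fold lower (log2 difference -3.80, SE 0.99, limma adjusted p = 0.0497), and the call was lost in 13 of 23 alternatives, with adjusted p-values from 0.0175 to 0.198. The log2 difference was -2.67 without PH80 replicate 2, -4.65 without PH70 replicate 3 and -4.79 without PH80 replicate 3. It had 916, 4740 and 5011 normalised reads in PH80_HC and 4835, 1280 and 4383 in PH80_G+H. Its neighbour Sult2a7 was low throughout, with 7.03, 0 and 15.6 normalised reads in PH80, against 41.2, 40.2 and 8.92 in PH70 (log2 difference -2.34, SE 1.09, limma adjusted p = 0.236).

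Sult1e1, which inactivates oestrogens by sulfation (chromosome 5, 87575969 to 87591594), was the member with the largest difference. It had 181, 1008 and 93.7 normalised reads in PH80, against 4.24, 7.31 and 17.8 in PH70. Every PH80 library was above every PH70 library, and in PH70 the gene rested on few reads, the fewest being 4. The difference was 27.7-fold (log2 difference 4.79, SE 1.06, limma adjusted p = 0.0264), with adjusted p-values from 0.000443 to 0.116 over the alternatives and the call lost in 6 of 23. Its size moved with the setting, as the log2 difference was 3.81 without PH80 replicate 2, 3.84 with a pseudocount of 10, 5.52 without PH80 replicate 3, 5.50 by DESeq2 and 5.77 by edgeR. Sult1e1 had 683, 138 and 18.2 normalised reads in PH80_HC, which overlapped PH80, and 33.1, 41.1 and 16.3 in PH80_G+H, which lay below all PH80 libraries. The abundant SULT genes were not called. Sult1a1 had 11809, 20495 and 13554 normalised reads in PH80, against 10908, 12472 and 11823 in PH70 (log2 difference 0.34, SE 0.28, limma adjusted p = 0.491). Sult1d1 had 1288, 1678 and 2636 normalised reads in PH80, against 2513, 2022 and 1771 in PH70 (log2 difference -0.22, SE 0.31, limma adjusted p = 0.712). Both overlapped between the resections, and they also overlapped PH80 in the arms. Sult1a1 had 21387, 12056 and 12429 normalised reads in PH80_HC and 16597, 13475 and 11240 in PH80_G+H. Sult1d1 had 2331, 3665 and 1540 normalised reads in PH80_HC and 1972, 1811 and 2401 in PH80_G+H. Of the remaining SULT genes, Sult5a1 was lower in PH80 without overlap and was not called (log2 difference -1.75, SE 0.53, limma adjusted p = 0.0888).

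Position on chromosome 5 set Sult1e1 beside the Ugt2 genes. Between 86889767 and 87591594 the table holds 11 genes, all of them members: 8 Ugt2 genes followed by Sult1b1, Sult1d1 and Sult1e1. The 8 Ugt2 genes all had negative log2 differences, Sult1b1 and Sult1d1 had -0.36 and -0.22, and Sult1e1 at the end of the row had 4.79.

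**Figure D4:**
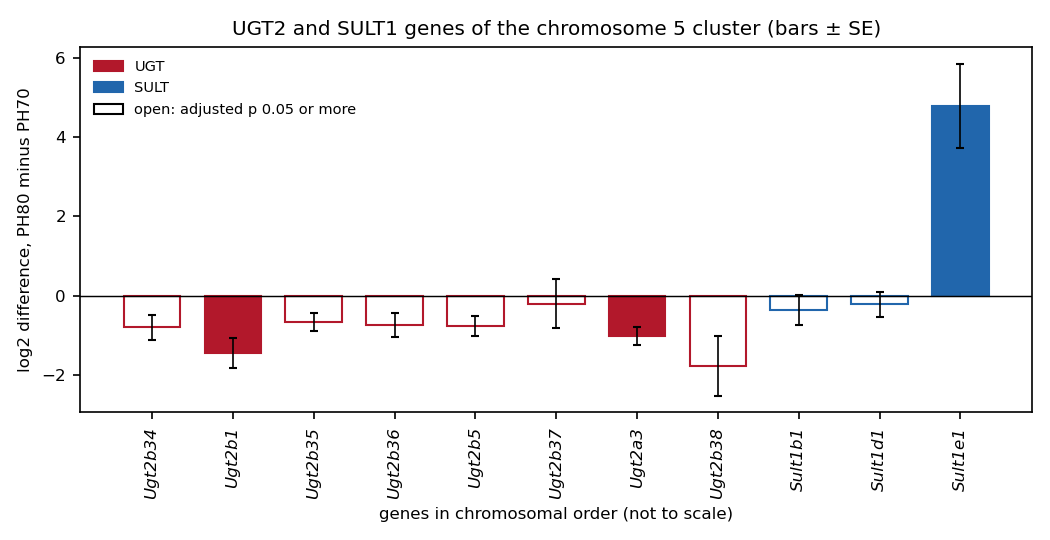
Log2 difference of PH80 minus PH70 (y axis, log2(normalised reads + 1), bars SE) for the 11 genes of the chromosome 5 cluster in their chromosomal order, with filled bars for an adjusted p under 0.05. The bars are below 0 from Ugt2b34 to Sult1d1, and the last gene, Sult1e1, stands at 4.79.

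Promoters are shown for called members in which a searched motif was found, together with that of Ugt1a1, so that the letters in front of genes that moved in opposite directions can be compared. The RefSeq promoter table (GRCm38.p6) held 42 of the 49 members, and 8 short motifs were searched on both strands in the 250 bases before the first listed start of 27025 genes. These motifs were chosen with the results known, and a match is a description of letters, not of binding. The motif forms were a consensus with 1 free base for HNF1, CAAAGTCCA for HNF4, TTGCNNAA for C/EBP, TTATNTAA for the D-box of circadian PAR bZIP factors, TGACNNNGC for the antioxidant response element, AGGTCA for the core of nuclear receptor sites, CACGTG for the E-box and TTCNNNGAA for STAT5. The sequences follow 5′ to 3′ on the strand of the gene, with the matched letters in capitals. Marked are the HNF1 form in Ugt1a1 (chr1:88211709-88211958, plus strand) and the D-box form in Ugt2b1 (chr5:86926504-86926753, minus strand) and Ugt2a3 (chr5:87337196-87337445, minus strand). Also marked are the nuclear receptor core in Sult1e1 (chr5:87591612-87591861, minus strand) and the C/EBP form in Sult2a8 (chr7:14446588-14446837, minus strand).
Ugt1a1: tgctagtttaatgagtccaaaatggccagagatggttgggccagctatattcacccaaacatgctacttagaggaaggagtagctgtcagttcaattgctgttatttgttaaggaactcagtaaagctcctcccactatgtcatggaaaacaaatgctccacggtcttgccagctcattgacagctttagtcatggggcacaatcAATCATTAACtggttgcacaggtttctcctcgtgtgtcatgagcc
Ugt2b1: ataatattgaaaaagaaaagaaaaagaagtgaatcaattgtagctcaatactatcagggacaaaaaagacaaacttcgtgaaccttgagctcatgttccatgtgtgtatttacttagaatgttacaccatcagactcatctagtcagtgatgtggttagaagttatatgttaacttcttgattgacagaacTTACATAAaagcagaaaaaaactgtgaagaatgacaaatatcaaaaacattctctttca
Ugt2a3: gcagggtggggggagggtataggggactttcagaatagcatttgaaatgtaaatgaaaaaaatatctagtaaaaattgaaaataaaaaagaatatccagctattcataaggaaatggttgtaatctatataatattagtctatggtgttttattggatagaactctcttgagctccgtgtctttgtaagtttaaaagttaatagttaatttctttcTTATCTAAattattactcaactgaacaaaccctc
Sult1e1: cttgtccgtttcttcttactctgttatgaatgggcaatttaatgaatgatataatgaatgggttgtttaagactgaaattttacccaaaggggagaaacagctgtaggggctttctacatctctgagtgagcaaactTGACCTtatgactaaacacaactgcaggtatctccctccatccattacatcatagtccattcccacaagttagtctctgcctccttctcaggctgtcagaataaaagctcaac
Sult2a8: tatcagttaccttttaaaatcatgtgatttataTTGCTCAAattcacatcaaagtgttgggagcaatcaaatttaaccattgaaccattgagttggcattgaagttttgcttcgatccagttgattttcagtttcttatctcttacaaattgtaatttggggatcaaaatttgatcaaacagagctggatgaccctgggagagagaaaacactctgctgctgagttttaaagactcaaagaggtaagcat

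The D-box form stood before 4 UGT genes (Ugt2b1, Ugt2b35, Ugt2b36 and Ugt2a3) and 1 GST gene (Gsta3), and before 3.33% of all genes searched. This form leaves a base free (N), so its matches differ in letters, with TTACATAA before Ugt2b1 and TTATCTAA before Ugt2a3. The HNF1 form stood before Ugt1a10, Ugt1a9, Ugt1a1 and Sult1d1, and before 0.411% of all genes. C/EBP letters were found before 7 members (9.55% of all genes), the nuclear receptor core before 10 (13.8%), and the antioxidant response element (10.1%) and STAT5 (7.18%) before 2 each. The HNF4 form (0.381%) and the E-box (6.05%) were found before 0 members. Ugt3a1 and Sult1c2 held none of the 8 forms in this window, and Ugt3a2 had no entry. The windows of Ugt3a1 (chr15:9279579-9279828) and Sult1c2 (chr17:53845959-53846208) lie within the gene spans given above. Their first listed starts thus differ from the ends of those spans, and the bases before those ends were not searched. The windows of Sult2a8 and Ugt2b1 overlap their gene spans in part.

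None of 20 tested GST genes was called in PH80 against PH70 by limma, edgeR or DESeq2 (4 at an unadjusted p under 0.05, as 21.4% of all tested genes). Their median log2 difference was -0.12, with 12 lower and 8 higher in PH80, and this direction was not stable, as the median ran from -0.36 to 0.18 over the alternatives and turned positive without PH70 replicate 1 or PH80 replicate 2. With the trend on transcript length removed, where 4.91% of all tested genes were called, 3 GST genes were called lower: Gstt1, of the theta class (adjusted p = 0.0270), Gsto1, which also reduces dehydroascorbate (adjusted p = 0.0292), and Gstk1 of mitochondria and peroxisomes (adjusted p = 0.0406). Without PH80_HC replicate 1, where 3.83% of all tested genes were called, Gstm3 and Gstm2 of the mu class were called higher.

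The largest positive differences among GST genes were those of Gsta1, Gstm3, Gstp2 and Gstm2, of the alpha, mu and pi classes, and none was called. Gstm3 had 50635, 30232 and 27920 normalised reads in PH80, against 8813, 7771 and 24016 in PH70 (log2 difference 1.57, SE 0.53, limma adjusted p = 0.118). Gsta1 had 2665, 505 and 861 normalised reads in PH80, against 399, 165 and 540 in PH70 (log2 difference 1.67, SE 0.64, limma adjusted p = 0.158). Gstp2 overlapped between the groups (log2 difference 0.84, SE 0.39, limma adjusted p = 0.235). Gstm3 did not overlap between the groups, nor did Gstm2, Gsta4, which detoxifies the lipid peroxidation product 4-hydroxynonenal, and Gstt3 (log2 differences 0.82, 0.53 and 0.48). This made 4 of 20 genes higher without overlap, where 12.8% of all tested genes were. Gsta1 shares 89.7% of its 50-base words with other genes, among them Gsta2, which had a log2 difference of -0.44, and reads of the pair may have been split. Gstp2 shares 72.6%, among others with the far more abundant Gstp1, and Gstm3 shares 28.8%, so their reads may also have been split.

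The abundant GST genes overlapped between the resections. Gstm1 had 107170, 43129 and 48255 normalised reads in PH80, against 60524, 54735 and 78894 in PH70 (log2 difference -0.08, SE 0.39). Gstp1 had 24225, 17749 and 35895 normalised reads in PH80, against 30337, 26038 and 25231 in PH70 (log2 difference -0.12, SE 0.31). Gsta3 had 33292, 16558 and 39109 normalised reads in PH80, against 45638, 33660 and 20442 in PH70 (log2 difference -0.18, SE 0.41). None of these was called, and PH80 replicate 2 was the lowest PH80 library for each. Gstp1 shares 62.3% and Gstm1 23.1% of its 50-base words with other genes, against 0% for Gsta3. Intervals of 2 SE on each side of the log2 difference ran from -0.86 to 0.71 for Gstm1, from -0.74 to 0.50 for Gstp1 and from -1.01 to 0.64 for Gsta3. All 3 intervals include 0 and allow differences in either direction. In the arms, Gstm1 had 97015, 47358 and 63392 normalised reads in PH80_HC and 71362, 71185 and 52616 in PH80_G+H. Gstp1 had 25921, 18131 and 21801 normalised reads in PH80_HC and 42505, 23287 and 24252 in PH80_G+H. Gsta3 had 33832, 40493 and 59709 normalised reads in PH80_HC and 40561, 19946 and 38582 in PH80_G+H. The ranges of all 4 groups overlapped with PH80 for these genes. Gstz1, the maleylacetoacetate isomerase of tyrosine breakdown, had 18560 ± 2621 normalised reads in PH80 against 21780 ± 9452 in PH70 (log2 difference -0.14, SE 0.33).

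Genes that supply, remove or control the conjugates were described from lists drawn up for these families with earlier results of these data known. Of all tested genes, 2.73% were called lower and 1.09% higher in PH80 than in PH70. Cofactor supply moved in few genes. Of 8 genes around UDP-glucuronic acid supply, Gys2, the liver glycogen synthase that draws on UDP-glucose, fell in PH80 (log2 difference -1.35, SE 0.21, limma adjusted p = 0.00550). Of 9 genes of sulfate and PAPS supply, the sulfite oxidase Suox fell (log2 difference -0.88, SE 0.20, limma adjusted p = 0.0274), and so did the sulfate transporter Slc26a1 (-1.02, SE 0.25, limma adjusted p = 0.0366). Of 15 glutathione genes, Gclc, the catalytic subunit of the rate-limiting synthesis step, fell (log2 difference -1.08, SE 0.26, limma adjusted p = 0.0367), as did Oplah, which recycles oxoproline (-0.69, SE 0.17, limma adjusted p = 0.0401). No gene of these 3 lists rose, and their median log2 differences were -0.49, -0.40 and -0.32. In that order, edgeR called 1, 2 and 0 genes of these lists, and the fit without the intensity trend 1, 1 and 0. DESeq2 called 2, 3 and 2. Of all tested genes, these settings called 2.84%, 2.7% and 7.57%.

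Other steps of conjugation also held few calls in PH80 against PH70, where 2.73% of all tested genes fell and 1.09% rose. Of 19 other phase II enzymes, Acsm3 and Acsm5, acyl-CoA synthetases of the amino acid conjugation pathway, fell (log2 differences -1.58 and -1.21, limma adjusted p = 0.0131 and 0.0199). Of 16 transporters of conjugates, the organic anion transporter Slco1a1 fell (log2 difference -2.78, SE 0.66, limma adjusted p = 0.0345). Of 4 deconjugating enzymes, the arylsulfatase Arsa fell (log2 difference -1.18, SE 0.18, limma adjusted p = 0.00578). In these 3 lists edgeR and the fit without the intensity trend each called 2, 0 and 1 genes, and DESeq2 called 5, 1 and 1. Over all tested genes, edgeR called 2.84%, that fit 2.7% and DESeq2 7.57%.

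Among 23 regulators, 3 fell and none rose, where 2.73% of all tested genes fell and 1.09% rose. Cebpa, the hepatocyte C/EBP factor, had 2748 ± 922 normalised reads in PH80 against 6733 ± 91.5 in PH70 (log2 difference -1.36, SE 0.23, limma adjusted p = 0.00814). Ppara, the fatty acid receptor, had 985 ± 364 normalised reads in PH80 against 3084 ± 878 in PH70 (log2 difference -1.66, SE 0.32, limma adjusted p = 0.0142), and Stat5b, which carries growth hormone signals, 666 ± 93.3 in PH80 against 1196 ± 123 in PH70 (log2 difference -0.85, SE 0.22, limma adjusted p = 0.0497). Targets of the xenobiotic receptors held few calls. Of 10 CAR and PXR targets 1 rose (Akr1b7, an aldose reductase relative, log2 difference 3.79, SE 0.60), of 15 NRF2 targets 1 fell (Gclc), and of 5 AHR targets 1 fell (Cyp1a2, log2 difference -1.51, SE 0.36). Of the regulators, edgeR and the fit without the intensity trend each called 2, and DESeq2 called 5. Of the CAR and PXR, NRF2 and AHR targets, edgeR and that fit each called 1, 0 and 0, and DESeq2 1, 2 and 1. Over all tested genes, edgeR called 2.84%, that fit 2.7% and DESeq2 7.57%.

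Sex-biased liver genes were included because several conjugating enzymes of mouse liver, Sult2a genes among them, differ between the sexes. In PH80, 2.73% of all tested genes fell, 1.09% rose and 48.6% had a lower mean log2 value. Of 21 male-biased genes, 6 fell in PH80 and none rose, and all 21 had a lower mean log2 value (median log2 difference -1.10). They included C8b, a complement component (log2 difference -1.35, limma adjusted p = 0.0171), Slco1a1, Cyp2d9 (log2 difference -1.10, limma adjusted p = 0.0366) and Cyp2u1 (-1.24, limma adjusted p = 0.0387), both cytochrome P450 enzymes. Of 18 female-biased genes, 1 rose (Prom1, log2 difference 3.99, SE 0.65) and none fell, and their median log2 difference was -0.01. Of the male-biased genes, edgeR and the fit without the intensity trend each called 2, and DESeq2 called 7. Of the female-biased genes, these settings called 1, 1 and 2. Over all tested genes they called 2.84%, 2.7% and 7.57%. The hepatocyte marker sum was lower in PH80 as well, and its part in these counts was not tested.

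The comparison of PH80_HC with PH80 asks what the HC arm changed after the larger resection. No member was called by limma, edgeR or DESeq2 (10 at an unadjusted p under 0.05). Of all tested genes, limma called 0.891%, edgeR 0.915% and DESeq2 4.04%, and 14.3% had an unadjusted p under 0.05. Of the UGT genes, 11 of 15 had a higher mean log2 value in PH80_HC, with a median log2 difference of 0.30, but with every library scaled to the same total 7 were higher and the median was -0.03. That scaling moved the median of all tested genes in this comparison by -0.33. Without PH80_HC replicate 3 the UGT median was 0.64, and without PH80 replicate 1 it was 0.12. The summed hepatocyte markers were higher in PH80_HC (2.93 to 4.21 M normalised reads) than in PH80 (2.04 to 2.50 M) without overlap, and their part was not tested. Library totals also differed, with 29.2, 21.4 and 30.5 M normalised reads in PH80_HC against 21.1 to 21.4 M in PH80. As a share of all values, Alb held 10.9%, 9.88% and 6.74% in PH80_HC, against 7.05% to 8.70% in PH80. The SULT median was 0.88 and the GST median 0.05.

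Gsta1 and the SULT2 genes had the largest differences between PH80_HC and PH80. Sult2a7 had 31.6, 23.7 and 180 normalised reads in PH80_HC, against 7.03, 0 and 15.6 in PH80 (log2 difference 3.36, SE 1.09, limma adjusted p = 0.171), without overlap. Sult2a8 had overlapping groups (log2 difference 2.63, SE 0.99, limma adjusted p = 0.241). Gsta1 had 616, 127 and 154 normalised reads in PH80_HC, against 2665, 505 and 861 in PH80, with overlap (log2 difference -2.19, SE 0.64, limma adjusted p = 0.127). Gstk1 had 3689, 2664 and 4300 normalised reads in PH80_HC, against 2180, 2354 and 1916 in PH80, without overlap (log2 difference 0.70, SE 0.22, limma adjusted p = 0.161), and Gsto1 was also higher without overlap (log2 difference 0.43). These made 3 of 43 members, where 8.26% of all tested genes were higher without overlap. Of all tested genes 0.652% rose and 0.239% fell in PH80_HC. Among the companion genes, Cdo1, which makes the sulfate precursor from cysteine, rose (log2 difference 1.19, SE 0.25, limma adjusted p = 0.0397), and so did Oplah (0.91, SE 0.17, limma adjusted p = 0.0279). Of 18 female-biased genes 3 rose (Slc22a26, Prlr and Cyp4a14, log2 differences 2.30, 1.49 and 2.08), and of 21 male-biased genes 2 fell (Mup1 and Mup7, -2.05 and -2.02). Most male-biased genes went the other way, as 15 had a higher and 6 a lower mean log2 value (median log2 difference 0.31). Among the female-biased genes 16 were higher and 2 lower (median 1.47). Of the female-biased genes edgeR called 4 and DESeq2 7, and of the male-biased genes they called 1 and 4. Over all tested genes they called 0.915% and 4.04%.

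The comparison of PH80_G+H with PH80 asks what G-CSF with HNF4a changed. No member was called by limma, edgeR or DESeq2 (10 at an unadjusted p under 0.05). Of all tested genes, limma called 0.119%, edgeR 0.0875% and DESeq2 1.61%, and 10.5% had an unadjusted p under 0.05. All 15 UGT genes had a higher mean log2 value in PH80_G+H, with a median log2 difference of 0.91 against 0.00 over all tested genes. The means of the untransformed values were lower in PH80_G+H for Ugt2b37 (135 against 139 normalised reads) and Ugt2b38 (100 against 107). Over the alternatives 13 to 15 of them were higher and the median ran from 0.47 (without PH80 replicate 2) to 1.26 (without PH80 replicate 3). The summed hepatocyte markers were also higher in PH80_G+H (2.67 to 3.21 M normalised reads) than in PH80 (2.04 to 2.50 M) without overlap, and their part in the UGT result was not tested. Ugt3a2 was nearest to the threshold, with 4213 ± 335 normalised reads in PH80_G+H against 2302 ± 875 in PH80 (log2 difference 0.94, SE 0.29, limma adjusted p = 0.250). Ugt1a1 had 1052, 1213 and 1018 normalised reads in PH80_G+H, against 162, 624 and 731 in PH80 (log2 difference 1.38, SE 0.57, limma adjusted p = 0.420). Ugt3a2, Ugt1a1 and Ugt1a6b were higher without overlap, as 8.82% of all tested genes were. Gstm3, Gstm2 and Sult1e1 were lower without overlap, as 8.11% of all tested genes were. The SULT and GST medians were 0.37 and 0.02, and the largest differences of any member were Sult1e1 (log2 difference -3.15, SE 1.06, limma adjusted p = 0.289), Sult2a8 (2.74, SE 0.99, limma adjusted p = 0.326) and Sult2a7 (2.35, SE 1.09, limma adjusted p = 0.477). Sult2a7 had 58.9, 5.44 and 44.9 normalised reads in PH80_G+H, and Gsta1 had 850, 495 and 713, both overlapping PH80. No gene of the companion lists was called by limma.

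**Figure D5:**
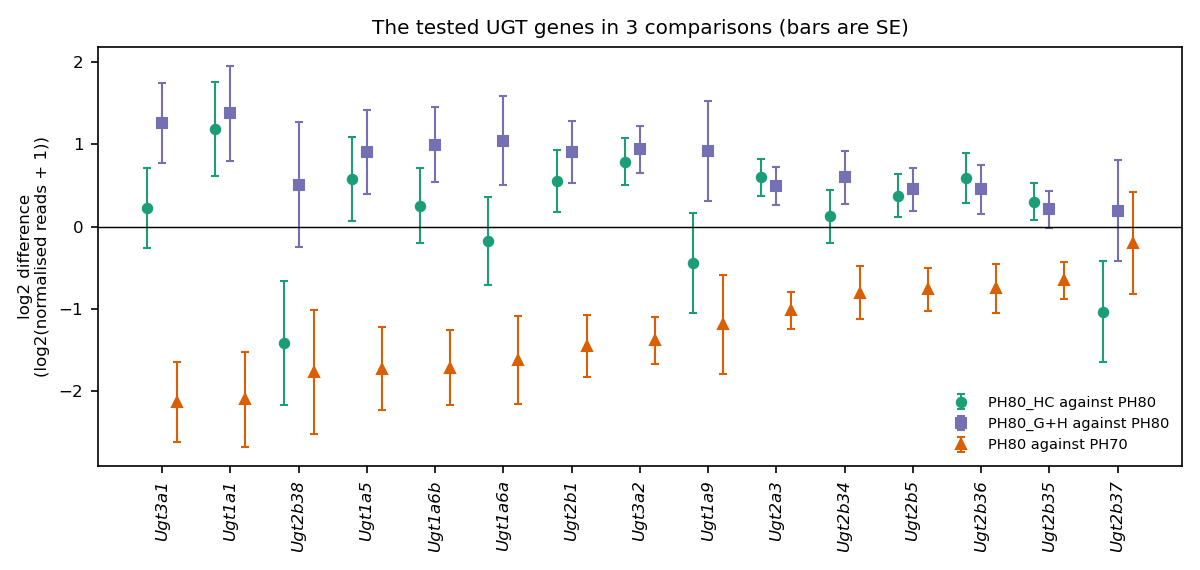
Log2 differences (y axis, log2(normalised reads + 1), bars SE) of the 15 tested UGT genes for PH80_HC against PH80, PH80_G+H against PH80 and PH80 against PH70. All 15 are above 0 in PH80_G+H against PH80 and below 0 in PH80 against PH70, and 11 of 15 are above 0 in PH80_HC against PH80. The comparisons share the PH80 libraries.

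These comparisons share the PH80 libraries, so their values are not independent of each other. Against PH70, the UGT genes of both arms stayed lower in the mean log2 value: 15 of 15 were lower in PH80_HC (median log2 difference -0.91) and 15 of 15 in PH80_G+H (median -0.53). The mean of the untransformed values of Ugt2b37 was higher in PH80_G+H (135 against 128 normalised reads). In PH80_HC 10 of 15 were below PH70 without overlap, where 9.07% of all tested genes were, and in PH80_G+H 6 of 15, where 7.57% were. Limma and edgeR called no member in PH80_HC against PH70 (9 at an unadjusted p under 0.05, as 15.8% of all tested genes), where they called 0.231% and 0.119% of all tested genes. They also called no member in PH80_G+H against PH70 (4 at an unadjusted p under 0.05, as 5.97% of all tested genes), where each called 0.00796%. DESeq2 called Ugt3a1, Ugt2b38 and Sult1e1 in PH80_HC against PH70 (2.01% of all tested genes) and no member in PH80_G+H against PH70 (0.525%). Ugt2b38 had 31.3 ± 23.9 normalised reads in PH80_HC against 241 ± 64.5 in PH70 (log2 difference -3.18, SE 0.76, limma adjusted p = 0.112).

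Between the arms, PH80_HC against PH80_G+H, no member was called by limma or edgeR (5 at an unadjusted p under 0.05, as 13.6% of all tested genes), where they called 0.255% and 0.35% of all tested genes. DESeq2 called Gstk1 (2.41% of all tested genes). Gstk1 had 3551 ± 827 normalised reads in PH80_HC against 2071 ± 414 in PH80_G+H (log2 difference 0.77, SE 0.22, limma adjusted p = 0.186). Over all 4 groups the moderated F test of limma called no member (17 at an unadjusted p under 0.05, as 19.1% of all tested genes), the smallest adjusted p being 0.0612 for Sult1c2, where it called 1.85% of all tested genes. The corresponding test of edgeR called 0 members (1.8% of all tested genes) and that of DESeq2 called 8 (9.75%), of which 5 were UGT genes.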

How the data were processed

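Liver RNA of 12 mouse libraries in 4 groups of 3 was analysed. A Qiagen column kit and the TruSeq Stranded mRNA kit (100 ng of RNA) were used, per the labels' protocols. The submitters' processing notes name GRCm38 (mm10) and DESeq2. The aligner, counter, annotation and use of strand are not stated there. The values deposited by the authors are a normalised signal, reads divided by 1 size factor per library, as read from the values: 100% of them in each library were whole reads within 0.01. Recovered reads ranged from 9720887 to 44526542 per library.

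From these values log2(value + 1) was computed in genes with at least 10 in at least 3 libraries (12570 genes). Limma 3.58.1 (R 4.3.3) with an intensity trend modelled group alone over the 12 libraries, two-sided, with Benjamini-Hochberg adjustment over all tested genes and a threshold of 0.05. Alternatives were another pseudocount, no filter, other scalings, no intensity trend, the compared groups alone, a replicate block, each library left out, removal of the trend on transcript length, and edgeR 4.0.16 and DESeq2 1.42.0 on the recovered reads. The fit was tested on simulated data for PH80 against PH70, with 200 of 12570 genes changed. It called 28% of the genes changed 2-fold and 95% of those changed 4-fold, and 5.38% of its calls were false. Genes with low mean values were not among those changed. Reads were drawn independently, without the trends on transcript length of the real libraries, so these percentages may not hold for the real libraries. A gene that was not called may still differ by 2-fold or more, and Ugt1a1 was not called at an estimated 4.28-fold difference in PH80 against PH70. Replicate numbers were not taken as pairs in the main fit, as the labels state no pairing. Coordinates and lengths are from GENCODE M21. The members and gene lists were chosen with earlier results of these data known. Members named with values in every library were those past the threshold, the 3 highest per kb in each family and the 3 largest differences in each of the comparisons of PH80_HC with PH80, PH80_G+H with PH80 and PH80 with PH70. Of other lists, up to 4 called genes were named, by smallest adjusted p. Ugt1a1, Ugt1a6b, Ugt2b38, Gstm3, Gstk1 and Gstz1 were named after their values were seen.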

Additional observations from a re-analysis of the deposited data

How the results depend on the processing

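The number of members called in PH80 against PH70 was 7, and it was 2 with every library scaled to the same total, 3 without the intensity trend, 3 by edgeR, 11 with the trend on transcript length removed and 12 by DESeq2. Leaving out each library in turn gave 0 to 12. It was 7 with a pseudocount of 10 or without the filter, 5 with TMM scaling and 10 with the compared groups alone. With the replicate number as a block it was 4. The labels do not state that the numbers pair the samples. The correlation of deviations over 18 same-numbered pairs ran from -0.367 to 0.373 and exceeded 0.1 in 6. Pairs with different numbers ran from -0.527 to 0.428. With 3 libraries per group these values cannot settle whether samples were paired. The block gave 1 call in PH80_HC against PH80 and changed no other count. In an alternative chosen after seeing the data, which drops from each group the library whose values depended most on transcript length, the counts were 10 in PH80 against PH70, 1 in PH80_HC against PH80, 1 in PH80_G+H against PH80 and 3 in the F test. Other counts that were 0 became 1 (compared groups alone) and 3 (DESeq2) in PH80_HC against PH70, 0 to 1 there when each library was left out, 1 by DESeq2 in PH80_HC against PH80_G+H, and in the F test 1 with the length trend removed, 8 by DESeq2 and 0 to 4 when each library was left out. The cause of these changes in the counts was not tested. The share of all tested genes called is not given for several settings, among them the pseudocount, filter, TMM, compared-groups and replicate-block alternatives. It is also not given for the alternative chosen after seeing the data. Counts without that share do not set the members apart from other genes. No called difference changed sign in any alternative. Scaling to the same total moved the median log2 difference of all genes by 0.12 in PH80 against PH70 and by -0.33 in PH80_HC against PH80.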
